A study of Mus musculus with 30 samples.

Results

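J774A.1 is a mouse macrophage-like cell line, and the clone KO2 carries a homozygous CRISPR deletion of B2_Mm2.Dicer1, a B2 SINE transposable element that lies inside the Dicer1 gene, within its first intron (chromosome 12). The comparison described here set the 3 untreated KO2 libraries against the 9 untreated libraries of WT1, WT2 and WT3, with 3 libraries for each of these 3 WT clones. These 12 libraries were taken from the 30 RNA-seq libraries of the series by their labelled clone and treatment, and untreated means that no interferon gamma (IFNG) was given. The other libraries came from the same clones after 100 ng/mL IFNG for 4 h, and from KO1, another clone with the same deletion.

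KO2 was made by electroporating cells with Cas9 ribonucleoprotein and guide RNAs on both sides of the element, and then growing a clone from a single cell. The WT clones were also grown from single cells, but they were not electroporated. KO2 is 1 clone, so its 3 libraries measure the spread between libraries and not the spread between edited clones, and an effect of the deletion cannot be told apart from another difference of this clone.

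The study's 4 guides designed for the element are shown. The study tried combinations of them and reports that a single set gave the expected cuts, so not all 4 define the edit in KO2. Each is written 5′ to 3′ in lower case, with its PAM in capitals. Guides gEC005 and gEC006 were designed upstream of the element and guides gEC007 and gEC008 downstream of it. The study's PCR of the edited bulk population, from which the clones were isolated, is described for gEC005 with gEC007.
gEC005: ggccagggaacggctttagaGGG
gEC006: atcgtgcaagggacacatcaGGG
gEC007: aaatagtcactgggcaacagTGG
gEC008: ttgacctcaaaatagtcactGGG

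Macrophages are phagocytes that sense microbes through pattern recognition receptors, engulf particles through scavenger, Fc and lectin receptors, and release cytokines such as TNF. Without added interferon they keep a low level of interferon-stimulated genes.

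The total counts assigned to genes were 27063931 to 29587932 in the KO2 libraries and 15566122 to 29000473 in the WT libraries, and mitochondrial genes took 2.82% to 3.76% of the counts in the 12 libraries. Of the 25 macrophage marker genes checked, 23 passed the filter on low counts, and Csf1r, Cd68, Itgam and Spi1 were present in every library. Few markers of other cells passed it: 0 of 10 mast cell and basophil genes, 1 of 15 B and plasma cell genes, 2 of 16 T and NK cell genes, 3 of 14 fibroblast and epithelial genes, 3 of 13 neutrophil genes, 3 of 12 dendritic cell genes and 4 of 12 erythroid and megakaryocyte genes. The summed level was 119 to 126 CPM in KO2 and 112 to 176 CPM in WT for the dendritic cell genes, 270.0 to 289 CPM and 217 to 350 CPM for the erythroid and megakaryocyte genes, and 9.19 to 11.3 CPM and 7.56 to 22.6 CPM for the neutrophil genes. Of these 7 lists, a single gene (Il7r) was called. Values below are CPM, the count of a gene relative to the library's total count, scaled by the trimmed mean of M values. They are not divided by gene length, so levels are compared between libraries and not between genes.

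Untreated KO2 and pooled WT cells differed at 1674 of 14441 genes tested, which is 11.6% of them. KO2 was higher at 706 genes (4.89%) and lower at 968 genes (6.7%; edgeR quasi-likelihood test, adjusted p-value under 0.05). This test took every library as an independent sample, although libraries of the same WT clone are not independent and KO2 is a single clone. Its adjusted p-values can therefore be too small for a difference between clones, and the calls describe these libraries. The same limit holds for the pooled comparison after IFNG. Most differences were small, with a median absolute log2 fold change (log2FC) of 0.38 over the called genes. An absolute log2FC of at least 1 was reached by 196 of them, 53 higher and 143 lower.

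The WT clones also differed from each other, and WT1 stood apart. In a fit with a mean for each clone, WT1 and WT2 differed at 7572 genes (52.4%), WT1 and WT3 at 7481 (51.8%), and WT2 and WT3 at 1451 (10%). KO2 differed from WT1 at 6128 genes (42.4%), from WT2 at 5734 (39.7%) and from WT3 at 5827 (40.4%), which lies between those values. KO2 was higher than each of the 3 WT clones at 692 genes (4.79%) and lower than each at 883 genes (6.11%), together 10.9% of the genes tested. The p-values of these pairs rest on the spread between libraries of a clone, which may be technical.

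**Figure D1:**
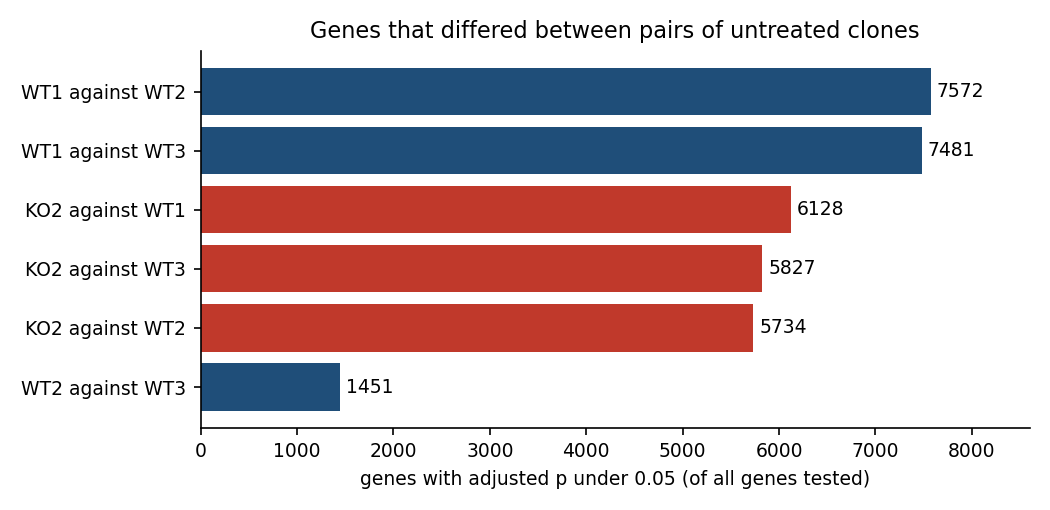
Bars give the number of genes with an adjusted p-value under 0.05 for each pair of untreated clones, with KO2 pairs in red and WT pairs in blue. The 3 KO2 pairs, at 5734 to 6128 genes, lie between the pair of WT2 and WT3, at 1451, and the pairs that hold WT1, at 7481 and 7572.

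In 4 genes, expression was near 0 in one group and clearly present in the other, and the groups did not overlap. Over all genes tested, 14% had no overlap between the 3 KO2 and the 9 WT libraries. Anpep encodes aminopeptidase N (CD13), a membrane enzyme that trims peptides at the cell surface (chromosome 7, 79821803 to 79861059, mm10). Its level was 0.0347, 0 and 0.0336 CPM in the KO2 libraries, and 66.7, 112 and 141 CPM in the lowest, median and highest WT library. The KO2 libraries held 2 Anpep counts in total against 21455 in the WT libraries, a ratio of 4305 (95% exact interval 1192 to 35550, counting error only). KO1 had 83.0 CPM of Anpep, within the range of the WT libraries, and KO2 lay below it (adjusted p-value = 1.46e-16 by edgeR, fitted log2FC = -11.53, a value that depends on the prior count).

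Gas6, a secreted ligand of the TAM receptor tyrosine kinases that bridges macrophages to dying cells, lies on chromosome 8. It measured 0.243, 0.220 and 0.202 CPM in KO2, and from 10.3 through a median of 33.5 to 74.3 CPM in WT. The KO2 libraries held 19 Gas6 counts and the WT libraries 8063, a ratio of 170 (95% exact interval 109 to 283). The WT clones spread widely, with a mean of 73.4 CPM in WT3, the highest, and the lowest mean in WT1, and KO2 lay far below the lowest of them. Mertk, a TAM receptor, was also lower, at 25.9, 25.6 and 25.3 CPM in KO2 against 28.5, 54.8 and 59.8 CPM in the lowest, median and highest WT library (log2FC = -0.92, adjusted p-value = 0.0209 by edgeR).

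Art3, a member of the ADP-ribosyltransferase family on chromosome 5, measured 0.0694, 0.110 and 0.0672 CPM in KO2 and 3.83, 4.77 and 6.57 CPM in the lowest, median and highest WT library. The 7 counts in KO2 against 1059 in WT gave a ratio of 60.7 (95% exact interval 29.4 to 151). Art3 was near 0 in KO1 as well, at 0.0132 CPM, so its low level was found in both edited clones. Pla2g7 encodes a secreted enzyme that inactivates platelet-activating factor and oxidised phospholipids (chromosome 17, 43568098 to 43612201). It was present at 21.3 to 25.9 CPM in the 3 KO2 libraries, while the 9 WT libraries together held 2 counts, a ratio of 2477 (95% exact interval 685 to 20470). KO1 expressed Pla2g7 at 15.4 CPM, and KO2 was higher than KO1 (log2FC = 0.59, adjusted p-value = 7.42e-05 by edgeR).

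Il7r, the interleukin 7 receptor chain, measured 0.694, 0.585 and 0.605 CPM in KO2 against 5.05, 11.6 and 17.4 CPM in the lowest, median and highest WT library (log2FC = -4.06, SE 0.45, adjusted p-value = 1.59e-04 by edgeR). Cd28, best known as a costimulatory receptor of T cells, was at 25.7, 24.4 and 19.9 CPM against 70.3, 112 and 215 CPM (log2FC = -2.47). Of the 16 T and NK cell markers, which include Il7r, 10 had no count in any of the 12 libraries, and Lck, the other marker tested, had a mean of 2.65 CPM in KO2 and 3.28 CPM in WT (log2FC = -0.31, adjusted p-value = 0.274). The summed level of that list was 3.29 to 3.54 CPM in KO2 and 7.79 to 20.6 CPM in WT. Antxr1, a receptor of anthrax toxin that binds collagen, fell by 2.46 on the log2 scale, and Itga8, an integrin chain, fell by 1.89. In the list of integrin and adhesion genes, 3 of 23 tested were higher and 1 was lower, against 4.89% and 6.7% of all genes.

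Among other genes with large decreases, Fosb, a subunit of the AP-1 transcription factor, measured 1.35, 1.72 and 1.41 CPM in KO2 against 6.89 to 24.8 CPM in the WT libraries (log2FC = -3.27, adjusted p-value = 3.79e-04 by edgeR). Zfp618, a zinc finger gene, was at 0.936 to 1.28 CPM against a lowest WT library of 4.77 CPM. Ltbp4, which binds latent TGF-beta, fell by 2.92 on the log2 scale, and Ctsh, a lysosomal protease, by 1.76. Vat1 was at 10.1 to 10.8 CPM in KO2, at means of 100 CPM in WT1 and 118 in WT2, but at 17.8 CPM in WT3, so most of its distance came from the former WT clones. The 10 smallest p-values included genes with modest but even differences. Clec4a1, a C-type lectin receptor, measured 32.2, 31.9 and 33.7 CPM against 64.2 to 68.7 CPM (log2FC = -1.02, SE 0.039, adjusted p-value = 8.59e-09 by edgeR). Parvg, an adaptor at integrin adhesions, fell by 0.74, and Camk2a, a calcium-dependent kinase, by 1.19.

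Among called genes of at least 5 CPM whose groups did not overlap, model names left out, the largest increase after Pla2g7 was in Tiam1. Tiam1 is an exchange factor that activates the Rac GTPase. Its level was 30.4, 30.9 and 29.6 CPM in KO2 and 3.12, 4.75 and 8.13 CPM in the lowest, median and highest WT library (log2FC = 2.52, SE 0.23, adjusted p-value = 3.77e-05 by edgeR). Adgre1, which encodes the macrophage marker F4/80, was at 273, 281 and 294 CPM in KO2, above every WT library. The WT clones differed strongly in Adgre1, with means of 10.2 CPM in WT1, 101 in WT2 and 42.2 in WT3, and the estimated log2FC was 2.48 ± 0.62 (SE; adjusted p-value = 0.0198 by edgeR). KO1, at 249 CPM, was near KO2.

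Other increases concerned enzymes and cytoskeletal regulators. St6gal1, a sialyltransferase of glycoproteins, was at 14.3 to 15.2 CPM against 0.611 to 8.33 CPM in WT (log2FC = 2.16). Dmpk, a serine/threonine kinase, was at 109 to 116 CPM against 29.4 to 56.8 CPM (log2FC = 1.37, adjusted p-value = 2.76e-04 by edgeR). Ppp1r12b, a regulatory subunit of myosin phosphatase, rose by a log2FC of 1.44, Hacd1, an enzyme of fatty acid elongation, by 1.25, Errfi1, an inhibitor of EGF receptor signalling, by 1.14, and the amino acid transporter Slc16a10 by 0.62. Treml2, a myeloid surface receptor, and Dusp2, a phosphatase that inactivates MAP kinases, rose by 1.31 and 1.30. Pcdhb22, a protocadherin, rose by 1.83, but reads may be shared with similar neighbours. Of 5 Pcdhb genes tested, 1 was higher and 2 were lower, and the median log2FC was -1.24.

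**Figure D2:**
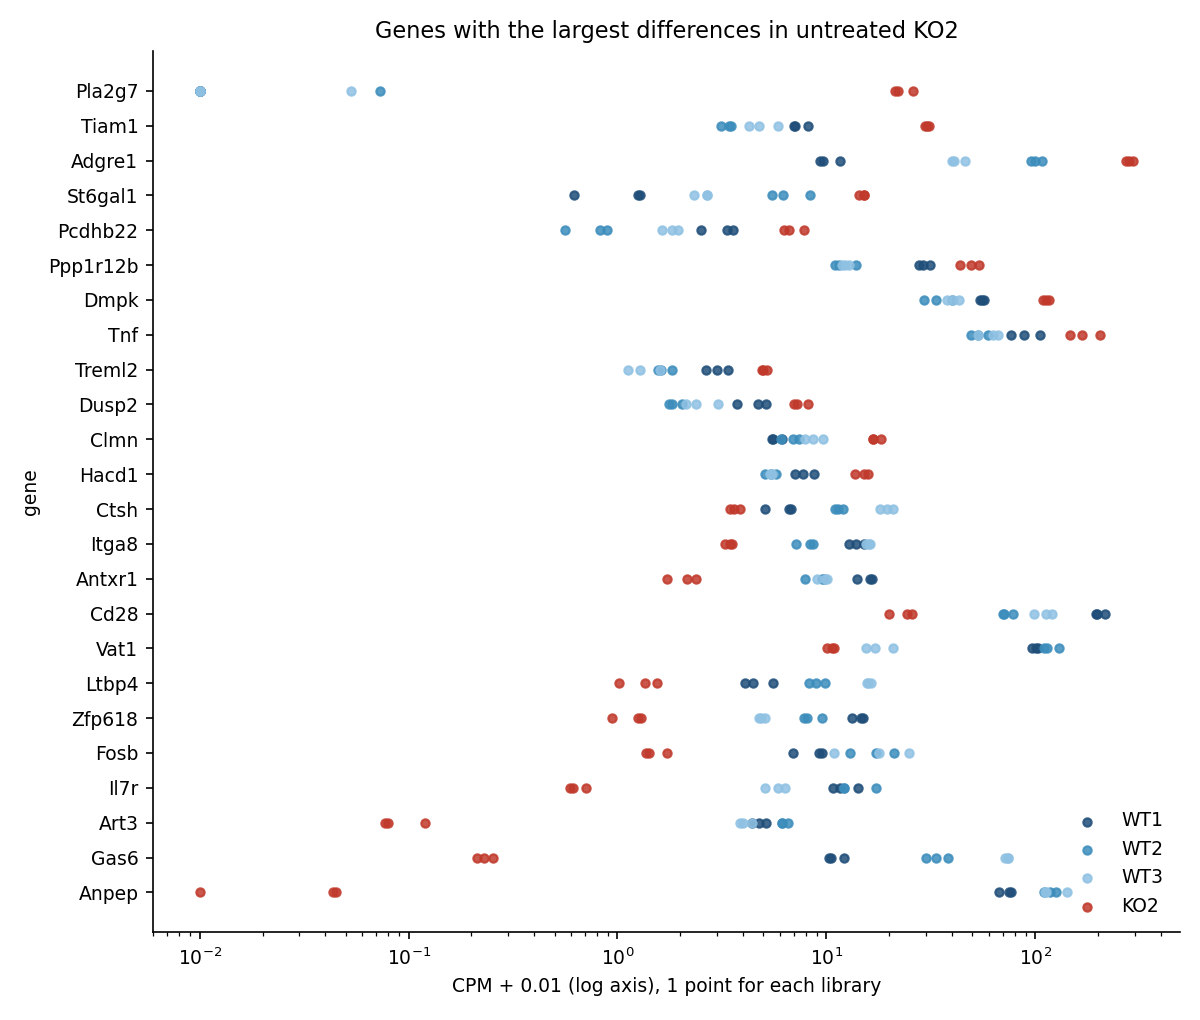
Each row is a gene and each point an untreated library, on a log axis of CPM + 0.01. The red KO2 points lie outside the range of the blue WT points in all 24 rows, and the WT clones form separate groups in several rows, such as Adgre1, Gas6 and Cd28.

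The called genes were unevenly spread over the chromosomes. On chromosome 6, 268 of 726 genes tested were lower and 8 were higher, so that 38% were called. Chromosome 17 went the other way, with 155 of 716 genes higher and 6 lower (22.5% called). On chromosome 1, 154 of 931 genes were lower and 29 higher (19.7%). The median log2FC was -0.28 on chromosome 6, 0.19 on chromosome 17 and -0.06 on chromosome 1, while on the other chromosomes it lay between -0.02 and 0.06. Chromosome 12, which holds the deleted element, had 21 higher and 18 lower genes among 512 (7.62%) and a median log2FC of 0.0006, so the data show no chromosome-wide shift there.

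**Figure D3:**
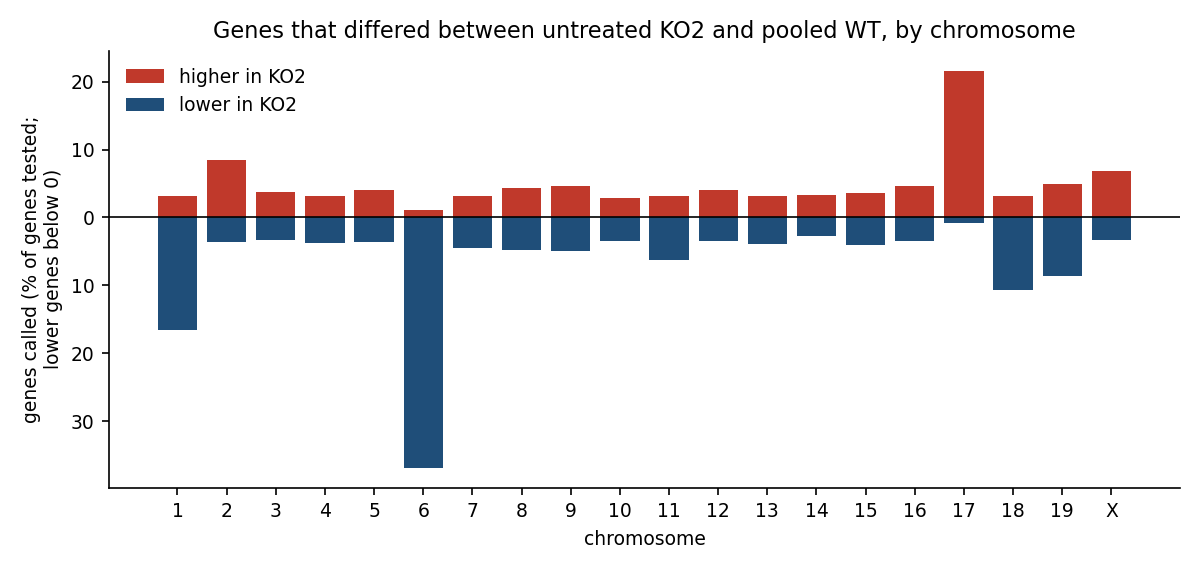
Bars give the share of tested genes on each chromosome that were higher (red, above 0) or lower (blue, below 0) in untreated KO2. Chromosome 6 stands out for lower genes, with 268 of 726, and chromosome 17 for higher genes, with 155 of 716.

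Within chromosomes, the differences lay in long stretches. These stretches were read from the medians of 10 Mb bins of this same comparison, so their values in the untreated libraries are a description. From 30 Mb to the end of chromosome 6, 268 of 649 genes were lower and 7 were higher (median log2FC = -0.31), and all 10 bins with at least 20 genes had medians from -0.36 to -0.24. Before 30 Mb on the same chromosome, 1 of 77 genes was called and the median was -0.0004. On chromosome 1 up to 70 Mb, 114 of 277 genes were lower and 2 higher (median -0.29, bin medians from -0.36 to -0.06), whereas the rest of that chromosome had a median of -0.01. Chromosome 17 was higher along its whole length, with bin medians from 0.14 to 0.27. Distal chromosome 2, from Mkks (start 136873780) onwards, had 67 higher and 7 lower genes among 354 (median 0.19, bin medians from 0.03 to 0.34), and chromosome X from 150 Mb had 12 higher genes and 1 lower gene among 80 (median 0.52). Outside these 5 stretches, 463 of 12365 genes were higher and 572 lower (8.37%), and the 193 bin medians lay between -0.11 and 0.12, a range that also holds the weakest bin of the chromosome 1 stretch and that of distal chromosome 2.

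The stretches were not alike in how they related to the WT clones. On chromosome 6 from 30 Mb, the median log2FC of KO2 was -0.30 against WT1, -0.30 against WT2 and -0.28 against WT3, and on chromosome 1 up to 70 Mb it was -0.25, -0.31 and -0.30. On chromosome 17 it was 0.04 against WT1 but 0.30 against WT2 and 0.29 against WT3. The same split was seen on distal chromosome 2, at 0.06, 0.30 and 0.31, and on chromosome X from 150 Mb, at 0.02, 0.95 and 0.88. There KO2 lay near WT1, and the difference from pooled WT came from WT2 and WT3. Against KO1, the medians of the 5 stretches ranged from -0.07 to 0.01, while on chromosome 12 the median was 0.37 and 351 of 488 genes were called.

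The IFNG libraries, which were not used to find the stretches, came from the same clones. The median log2FC of KO2 against pooled WT after IFNG was -0.30 on chromosome 6 from 30 Mb, -0.30 on chromosome 1 up to 70 Mb, 0.18 on chromosome 17, 0.16 on distal chromosome 2 and 0.51 on chromosome X from 150 Mb. On chromosome 6 from 30 Mb, 241 of 619 genes tested were lower after IFNG and 7 were higher (edgeR, adjusted p-value under 0.05). The background after IFNG was 10% of 14042 genes, 3.92% higher and 6.12% lower.

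**Figure D4:**
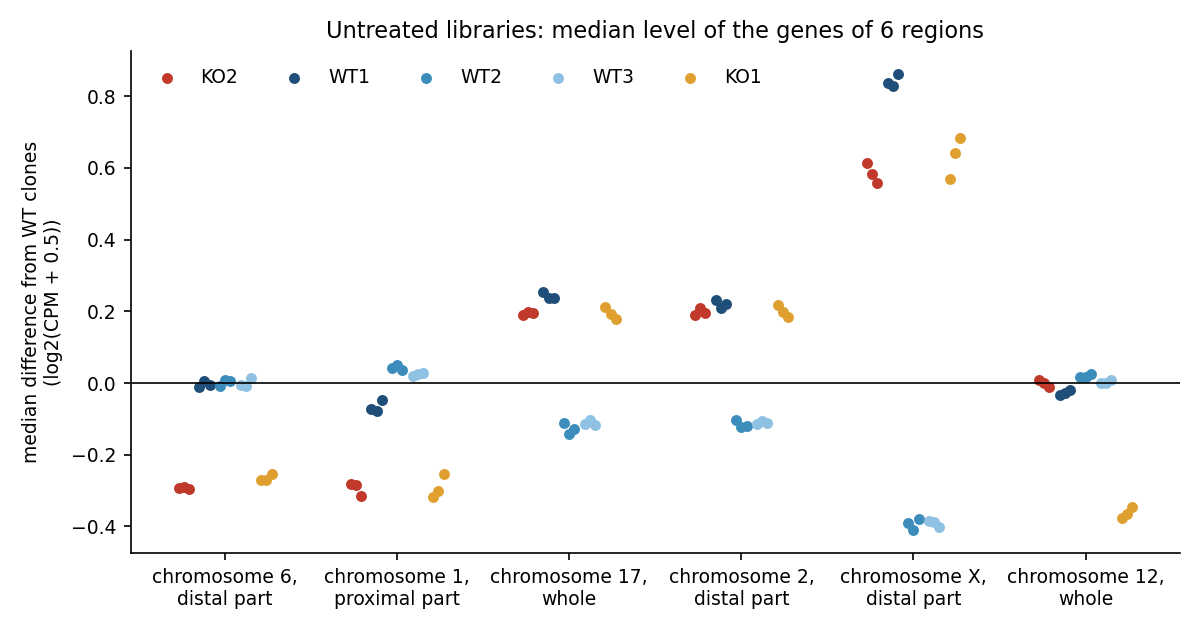
Each point is an untreated library, placed by the median difference of a region's genes on the scale of log2(CPM + 0.5), relative to the median over all genes of at least 1 CPM. Reference values are the 3 WT clones for KO2 and KO1 libraries, and the other 2 WT clones for each WT library. The KO2 points lie from -0.30 to -0.29 on distal chromosome 6, where the WT points lie from -0.01 to 0.01, and on chromosome 12 KO2 lies from -0.01 to 0.01 and KO1 from -0.38 to -0.35.

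The genes with the largest differences in each stretch were named by the same rule as the leading genes. On chromosome 6 these were Antxr1, P3h3, a collagen-modifying enzyme, Clec4n and Mgst1, a microsomal glutathione transferase, with log2FC values from -2.46 to -1.27. On chromosome 1 up to 70 Mb they were Cd28, Adam23, the sulfotransferase Chst10 and the interleukin 18 receptor chain Il18rap, from -2.47 to -0.93. On chromosome 17 they were Pla2g7, Adgre1, Tnf and Treml2. On distal chromosome 2, Btbd3 (log2FC = 0.98) and the protease inhibitor Cst3 (0.68) were higher, and Atp9a was lower (-0.70). On chromosome X from 150 Mb, the adaptor Sh3kbp1, Maged2, Reps2 and Tsr2 were higher by 0.79 to 1.23.

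The C-type lectin receptors, which recognise sugars on microbes and on dying cells, overlapped with the chromosome 6 stretch. Of 15 tested, 6 were lower and 0 higher, against a background of 6.7% of genes lower, and all 6 lay on chromosome 6 from 30 Mb. In that stretch 268 of all 649 genes tested were lower, so the count of lower lectin genes is not particular to lectins. Besides Clec4a1, Clec4n (Dectin-2) was at 4.99, 4.68 and 5.84 CPM against 9.33 to 19.4 CPM in WT (log2FC = -1.41). Clec4d was at 127, 133 and 147 CPM against 163 to 265 CPM (log2FC = -0.73), and Clec7a (Dectin-1) at 15.1 to 15.8 CPM against 18.9 to 29.8 CPM (log2FC = -0.67). Not every lectin gene of this stretch was lower: Clec12a had a log2FC of 0.17 (adjusted p-value = 0.818 by edgeR) and Clec4e one of -0.59 (adjusted p-value = 0.239). C1ra, a complement protease gene of the same stretch, fell by 0.86.

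Part of the interferon-stimulated genes (ISGs) was lower in KO2 without any IFNG. Of 39 tested, 16 were lower and 0 higher, against 6.7% of all genes lower, and the log2FC was below 0 in 35, the median being -0.47 against -0.003 over all genes tested. Of the 16, 3 lay in the 5 stretches, and 12 of the list were called against each of the 3 WT clones. The summed level of the list was 849 to 864 CPM in the KO2 libraries and 877 to 1060 CPM in the WT libraries. The median log2FC was -0.39 against WT1, -0.58 against WT2 and -0.23 against WT3.

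The lower genes included antiviral effectors and regulators of the response. Usp18, a protease that removes ISG15 and restrains interferon receptor signalling, was at 1.42, 1.83 and 1.88 CPM in KO2 and at 2.89, 4.01 and 5.91 CPM in the lowest, median and highest WT library (log2FC = -1.34, SE 0.23, adjusted p-value = 0.00224 by edgeR). Ifit2, which binds foreign RNA and limits its translation, was at 10.5, 11.1 and 11.6 CPM against 17.3, 20.6 and 26.1 CPM (log2FC = -0.94, SE 0.12, adjusted p-value = 3.10e-04). Cmpk2, a mitochondrial nucleotide kinase, was at 2.91, 3.04 and 3.19 CPM against 4.05 to 7.96 CPM (log2FC = -0.87). Isg15, a ubiquitin-like modifier, was low throughout, at 0.437 to 0.768 CPM in KO2 and 0.728 to 1.56 CPM in WT, and its groups overlapped (log2FC = -0.87, adjusted p-value = 0.0478).

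Sensors and transcription factors of the pathway were in the list as well, and the following were picked after their values were seen. Oas3, which makes the 2-5A messenger in response to double-stranded RNA, was at 29.3, 30.3 and 31.1 CPM in KO2 against 39.5 to 54.1 CPM in WT (log2FC = -0.64, adjusted p-value = 7.33e-04 by edgeR). Irf7, a master regulator of type I interferon genes, fell by 0.72, the RNA sensor Dhx58 by 0.78 and Rsad2 (viperin) by 0.83. In contrast, Irf1 had a log2FC of 0.08 and Trim25 one of 0.24, and neither passed the test. Of 11 guanylate-binding proteins and immunity-related GTPases tested, which are typical IFNG targets, only Irgm2 was called lower, against 6.7% of all genes. The log2FC was nevertheless below 0 in 9 of the 11, with a median of -0.32 against -0.003 over all genes tested. An unadjusted p-value under 0.05 by edgeR was reached by 6 of them. Irgm2 measured 5.52 to 6.22 CPM in KO2 against 8.14 to 11.5 CPM in WT (log2FC = -0.74, adjusted p-value = 5.15e-04 by edgeR).

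**Figure D5:**
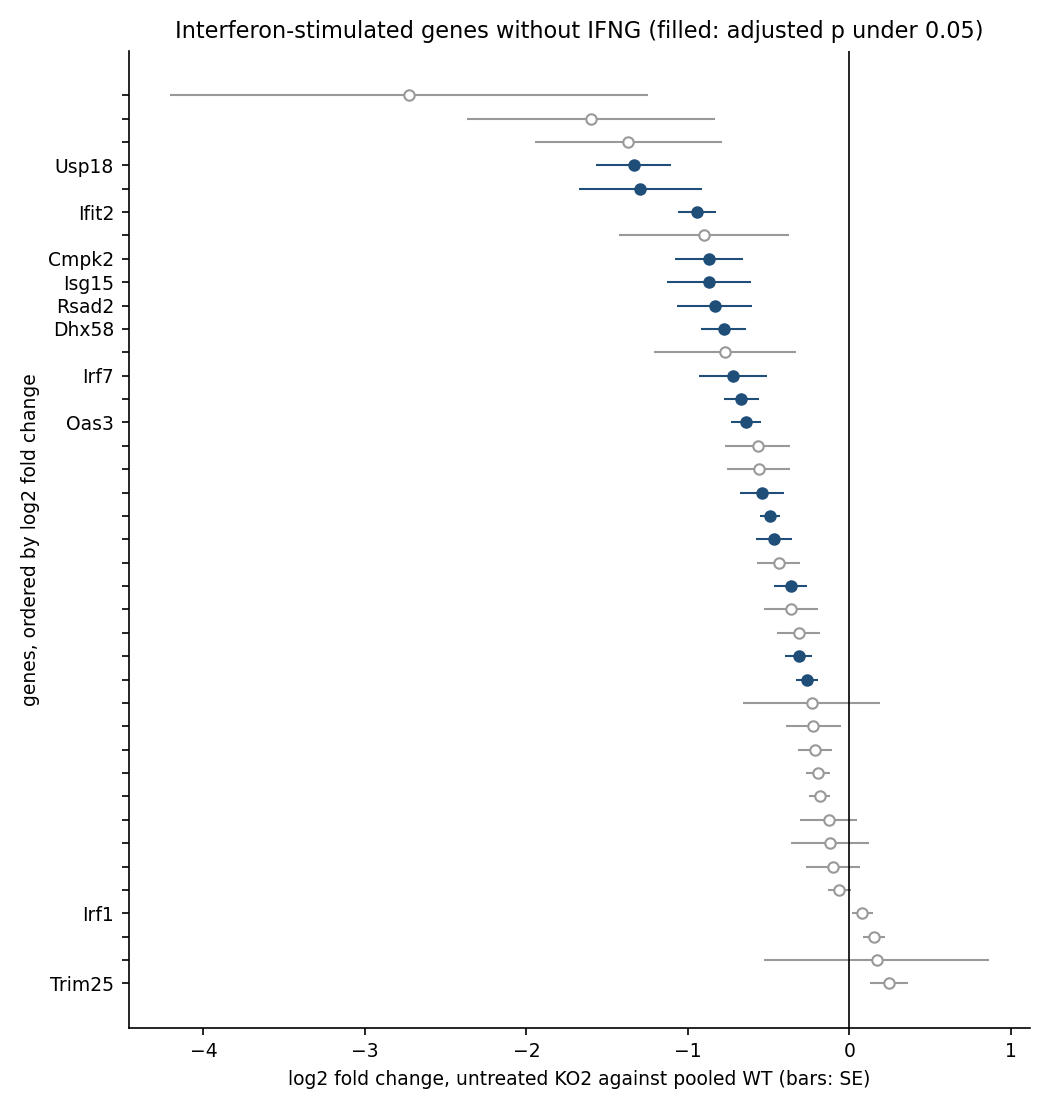
Each row is an interferon-stimulated gene with its log2 fold change between untreated KO2 and pooled WT, bars give the standard error, and some of the genes described in the text are labelled. Of the 39 genes, 35 lie below 0, and the 16 filled points passed an adjusted p-value of 0.05.

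The count of lower ISGs depended on the number of KO2 libraries. It was 6, 8 and 6 when KO2 library 1, 2 or 3 was left out, with 0 higher each time, and medians from -0.50 to -0.47. Without WT1 it was 25 of 37 lower and 2 higher, without WT2 10 of 38 lower and 1 higher, and without WT3 14 of 39 lower. Calls over all genes moved too, to 5625 of 13842 without WT1, 1256 of 14339 without WT2 and 1297 of 14354 without WT3. Leaving out KO2 library 1, 2 or 3 gave 825, 854 and 831 calls over all genes. KO1 had low levels too, with 12.3 CPM of Ifit2 and 30.9 CPM of Oas3, and the median log2FC of KO2 against KO1 over the list was 0.11. After IFNG, 7 of 39 were lower and 0 higher, with a median of -0.28.

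The promoters of 3 of these genes are shown to give the sequence context of the ISG list. They are stretches of the RefSeq promoter windows (build GRCm38.p6, 250 bases before to 50 after the start site), written on the gene's strand. Capitals mark matches to the core of the interferon-stimulated response element (ISRE), searched on both strands as 2 copies of GAAA with 2 bases of any kind between them. The Oas3 stretch is chr5:120777685-120777774, the Rsad2 stretch chr12:26456523-26456612 and the Isg15 stretch chr4:156200835-156200936, all on the minus strand, and in Isg15 3 matches overlap.
Oas3: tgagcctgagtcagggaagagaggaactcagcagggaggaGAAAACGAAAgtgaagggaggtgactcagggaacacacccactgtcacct
Rsad2: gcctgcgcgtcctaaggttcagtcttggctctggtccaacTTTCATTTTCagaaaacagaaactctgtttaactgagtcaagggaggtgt
Isg15: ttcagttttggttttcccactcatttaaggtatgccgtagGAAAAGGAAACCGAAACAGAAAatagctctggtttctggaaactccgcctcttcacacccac

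The motif was present in 1126 of 32817 promoter windows (3.43%). Among lower ISGs with at least 1 CPM and a RefSeq window, 6 of 11 held it, and among ISGs that were tested and not called, 6 of 16 did.

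Among genes of the TNF and NF-kB response, Tnf, Nfkbia and Zfp36 were higher. They come from separate lists, whose counts are given below. Tnf, the main pro-inflammatory cytokine of macrophages, lies on chromosome 17. It was at 203, 168 and 146 CPM in KO2 against 49.3, 63.0 and 105 CPM in the lowest, median and highest WT library (log2FC = 1.34, SE 0.19, adjusted p-value = 7.47e-04 by edgeR). Its level was 80.3 CPM in KO1, and KO2 was higher than KO1 by a log2FC of 1.11 (adjusted p-value = 3.27e-06), although chromosome 17 itself had a median of 0.01 in that comparison. Nfkbia, the inhibitor IkB-alpha that NF-kB itself induces, was at 159 to 180 CPM against 79.2 to 141 CPM (log2FC = 0.73, adjusted p-value = 0.0214), and Zfp36, which destabilises the mRNA of Tnf, was at 244, 209 and 193 CPM against 70.8 to 171 CPM (log2FC = 0.77, adjusted p-value = 0.0320). In these genes the KO2 libraries lay nearest to WT1, whose means were 89.8 CPM for Tnf, 133 for Nfkbia and 158 for Zfp36.

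The count of called NF-kB genes depended on the WT clones. With all WT clones, the counts of this paragraph stand against 4.89% of all genes higher and 6.7% lower. Of 17 NF-kB subunits and inhibitors tested, only Nfkbia and Nfkbid were higher, and 0 were lower, and the median log2FC was -0.04 against WT1, 0.18 against WT2 and 0.15 against WT3. Without WT1 9 of 17 were higher and 4 lower, while 5625 of all 13842 genes tested were called in that fit. Without WT2 0 of the list passed in either direction, while 1256 of all 14339 genes were called. Of 12 chemokines tested, 4 were higher and 0 lower: Ccl2, which draws monocytes, at 187, 201 and 175 CPM against 83.1 to 127 CPM in WT (log2FC = 0.79, adjusted p-value = 4.63e-04 by edgeR), Ccl9 (0.51), Cxcl16 (0.30) and Cxcl14 (2.65). Cxcl14 was low, at 1.73 to 2.01 CPM against 0.0421 to 0.636 CPM. Of 18 cytokines and inflammatory mediators tested, 3 were higher and 1, Vegfa, was lower, and the log2FC was below 0 in 10. The median log2FC of these 18 was -0.19 against WT1, 0.88 against WT2 and 0.96 against WT3. Vegfa, the vascular endothelial growth factor, had no count in KO2 and a mean of 0.439 CPM in WT. Besides Tnf, Il1rn, the interleukin 1 receptor antagonist, and Plau, the urokinase protease, rose by 0.76 and 0.62, while Il1b had a log2FC of 1.27 that did not pass the test (adjusted p-value = 0.260).

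Of 27 immediate early genes tested, 4 were higher (Dusp2, Zfp36, Myc and Dusp4), and 1, Fosb, was lower. The shares over all genes were 4.89% higher and 6.7% lower. The median log2FC of the list was -0.23 against WT1, 0.62 against WT2 and 0.55 against WT3, so the WT clones lay on both sides of KO2. Without KO2 library 1, 0 of the 4 higher calls were made, and over all genes 313 were higher. By chi-square per degree of freedom over genes, KO2 library 1 stood at 11.3 from library 2 and 17.6 from library 3. KO2 libraries 2 and 3 stood at 3.57 from each other, and pairs within a WT clone at 1.95 to 10.2. The other AP-1 genes Fos and Jun had log2FC values of 0.13 and 0.05 with adjusted p-values of 0.742 and 0.849.

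Macrophage identity genes were present at similar or higher levels. Of 23 tested, 6 were higher and 1, Mertk, was lower, against 4.89% of all genes higher and 6.7% lower. Csf1r, the receptor of the macrophage growth factor CSF1, was at 1406, 1427 and 1434 CPM against 1116 to 1283 CPM in WT (log2FC = 0.24, adjusted p-value = 0.00780 by edgeR). Spi1 (PU.1), the lineage transcription factor, rose by 0.27, Itgam (CD11b) by 0.39 and Aif1 by 0.46. The scavenger receptor Marco was higher as well, at 4.43 to 5.98 CPM against 1.81 to 2.81 CPM (adjusted p-value = 2.77e-04). The summed level of the list was 9309 to 9861 CPM in KO2 and 6949 to 8926 CPM in WT. The Fc receptor Fcgr2b was lower, at 244 to 260 CPM against 289 to 390 CPM (log2FC = -0.42). Of 33 myeloid transcription factors tested, 5 were higher (Spi1, Lmo2, Id3, Zeb1 and Meis1) and 0 lower, against 4.89% of all genes higher.

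In the next groups, the counts stand against 4.89% of all genes higher and 6.7% lower. The number of lysosomal genes higher was 6 of 29, with Ctsz and Npc1 at a log2FC of 0.34 and 0.32, and Ctsh and Ctse were lower. Of 34 cell cycle genes tested, 8 were lower and 1, Myc, was higher. The largest of these decreases were in Cdkn1b and Mcm2 on chromosome 6 and Mcm3 on chromosome 1, at -0.51, -0.35 and -0.38, and 5 of the 8 lay outside the 5 stretches, among them Top2a (-0.16) and Ccnb1 (-0.23). Among 35 inflammasome and cell death genes, 5 were lower, including Casp8 (-0.68) on chromosome 1 up to 70 Mb, Gsdme (-0.71) on chromosome 6 and the DNA sensor Aim2 (-0.43), and 2 were higher. Of 23 p53 targets, 3 were higher, including Cdkn1a (0.63, on chromosome 17) and Zmat3 (0.56), and 1 was lower.

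The next counts stand against 11.6% of all genes called. Of 79 cytosolic ribosomal protein genes tested, 0 passed in either direction by edgeR, and 5 had an unadjusted p-value under 0.05. Of 80 oxidative phosphorylation genes, 7 were higher and 5 lower, and 9 of these 12 lay in the 5 stretches. Of 25 glycolytic genes and lactate transporters, 1 was higher (Slc16a1, 0.44). The glycolysis list had a median log2FC of -0.29 against WT1, 0.36 against WT2 and 0.40 against WT3, so the WT clones lay on both sides of KO2. MHC class I and antigen presentation genes gave 1 call among 22 (Calr, 0.19), and MHC class II genes 0 among 6, with 1 unadjusted p-value under 0.05. Of 196 solute carriers, 20 were higher and 11 lower, and of 314 Zfp zinc finger genes, 9 were higher and 15 lower, with 16 of these 24 in the stretches.

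Among 18 genes of small RNA processing, the pathway in which Dicer1 cuts microRNA precursors, 2 were higher and 0 lower, against 11.6% of all genes called. These were Xpo5, the exporter of precursors, on chromosome 17 (log2FC = 0.31, adjusted p-value = 0.00133 by edgeR) and the Argonaute gene Ago3 (0.33, adjusted p-value = 0.0195). Dicer1 itself was at 108, 104 and 101 CPM in KO2 against 96.7, 124 and 130 CPM in the lowest, median and highest WT library, and the groups overlapped (log2FC = -0.18, SE 0.080, adjusted p-value = 0.179). In the fit with a mean for each clone, the log2FC of Dicer1 was -0.01 against WT1 (adjusted p-value = 0.855), -0.29 against WT2 (adjusted p-value = 4.73e-05) and -0.23 against WT3 (adjusted p-value = 3.88e-04). After IFNG its log2FC was -0.61 (adjusted p-value = 5.50e-04), and whether the difference changed with IFNG was not tested. Within 2.5 Mb of the Dicer1 start site, Clmn, the neighbouring gene for the actin-binding protein calmin, was at 18.3, 16.8 and 16.6 CPM in KO2 against 5.49 to 9.58 CPM in WT (log2FC = 1.29, SE 0.15, adjusted p-value = 1.75e-04). KO1 had 9.42 CPM of Clmn, and KO2 was higher than KO1 by a log2FC of 0.88 (adjusted p-value = 6.29e-06). In that comparison the window's genes besides Dicer1, Clmn among them, had a median log2FC of 0.45, and 21 of 29 were called. The median of chromosome 12 was 0.37 there, so the Clmn difference from KO1 is partly shared with its neighbours. Against pooled WT, the protease gene Lgmn was higher by 0.31 and the ISG Ifi27l2a lower by 0.67. These 3 were the called genes among 32 tested in the window besides Dicer1, a share of 9.38% against 11.6% of all genes, and the median log2FC in the window was -0.04.

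The 22 gamma protocadherin genes on chromosome 18 were counted as 21 lower genes, with log2FC values from -0.63 to -0.36. They share their last exons, and reads were assigned to every overlapping gene, so these values are not independent measurements of 22 genes. The same counting can give host gene reads to small RNA genes. Among 410 of them tested, 22 were higher and 3 lower, so 6.1% were called against 11.6% of all genes. The types differed: of 180 small nucleolar RNA genes, 17 were higher and 0 lower, and of 182 microRNA genes, 2 were higher and 3 lower. Over all genes, 4.89% were higher and 6.7% lower. Whether these calls arose from host gene reads was not tested.

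After IFNG, 997 of the 1674 differences were found again in the same direction (edgeR, adjusted p-value under 0.05), which is 59.6% of the calls in untreated cells and 70.7% of the 1411 calls after IFNG. Of the 697 higher genes that were tested after IFNG, 687 had a positive log2FC, and of the 955 lower genes, 951 had a negative one. 0 genes were called in opposite directions. For Anpep the log2FC after IFNG was -8.73, for Gas6 -7.60, for Adgre1 2.51, for Tnf 1.56 and for Tiam1 1.83. The same clones gave both sets of libraries, so this comparison adds libraries and a condition but no further clone.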

How the data were processed

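The authors used BBDuk for trimming and HISAT2 2.1.0 for alignment (build mm10), and counted reads per gene with featureCounts 1.6.2 on GENCODE vM18 exons, per the file headers with strand and with overlapping genes each receiving a read. The deposited values were raw counts for 54146 genes. Values in CPM were computed here. Count columns name the clone but no replicate, and the columns named wtc1 were taken as WT2 because the deposited table of WT2 holds them. All tables of fold changes by the authors were left out. KO2 and the pooled WT clones were compared with edgeR 4.0.16 (filterByExpr, TMM, quasi-likelihood test, Benjamini-Hochberg adjustment, adjusted p-value under 0.05, on R 4.3.3), and DESeq2 1.42.0 was an alternative. Standard errors were the log2FC divided by the square root of F. Genes were named by a rule: the 12 largest changes in each direction and the 10 smallest p-values among called genes of at least 5 CPM whose groups did not overlap, the 4 largest changes per list and stretch, genes near Dicer1 and genes under 0.5 CPM in a single group. Model names, such as Gm with digits, were left out of the largest changes, the smallest p-values and the stretches. Members, lists and rules were chosen with earlier results of these data known. On simulated counts for this comparison, 200 of 14441 genes were changed. There edgeR recovered 26 of 50 genes changed 1.5-fold and 44 of 50 changed 2-fold, and it called 9 unchanged genes. The simulated WT libraries shared a mean and had no differences between clones, so these numbers do not measure false calls that arise from differences between clones. The labels give more than one RNA input and adapter kind without tying them to libraries, so these could not be checked. Ccnb1, Cd68, Clec12a, Clec4e, Csf1r, Dhx58, Fos, Il1b, Irf1, Irf7, Jun, Lck, Oas3, Rsad2, Spi1, Top2a, Trim25 and Vegfa lie outside the rule and were chosen after their values were seen. Some genes that the rule names are not reported here.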

Additional observations from a re-analysis of the deposited data

Results flagged for a closer look

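Among the 9 untreated WT libraries, a single library stood far from the others in 2 of the 130 named genes, judged by its gap to the next library over the whole range, a test that flags about 1 in 20 groups by chance. Ifi27l2a was at 96.2 CPM in WT1 library 1, and the next highest library was at 76.8 CPM. Ndufb3, a subunit of respiratory complex I, was at 43.4 CPM in the same library, and the next was at 39.0 CPM.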

How the results depend on the processing

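The number of genes called in the untreated comparison was 1674. It was 5625 without clone WT1 and 5438 when KO2 was set against the mean of the 3 clone means. With counts summed per clone, edgeR called 0 of 16849 genes, and 689 had an unadjusted p-value under 0.05. Leaving out 1 library gave 825 to 2007 calls, and each fit without a KO2 library gave at most 854. DESeq2 gave 2107. After IFNG, leaving out 1 library gave 533 to 1796 calls. Between untreated WT2 and WT3 it gave 703 to 1982. The median log2FC of chromosome 17 was 0.29 without WT1, 0.15 without WT2 and 0.16 without WT3, and 0.18 to 0.22 leaving out 1 library. The median log2FC of chromosome 1 was -0.0552 without WT1, -0.0487 on log2(CPM + 0.5) and -0.0942 to -0.0578 leaving out 1 library. The median log2FC of chromosome 2 was 0.0698 without WT3 and 0.0693 among genes of at least 10 CPM. The median log2FC of chromosome 6 was -0.25 on log2(CPM + 0.5), and the median log2FC of chromosome 12 was 0.0120 without WT2. The cause of these changes was not tested. No named gene changed sign in these fits. DESeq2 kept the side of the threshold for all 130 named genes, while 34 lost it without WT2, 36 without WT3, 52, 51 and 45 without KO2 library 1, 2 or 3, and 129 with counts summed per clone. No paired analysis was possible because the count columns carry no replicate numbers, so the block fits were not run.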
